A study of Homo sapiens with 4 samples.

Results

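Interferon-stimulated genes (ISGs) are the genes that cells switch on when type I or type III interferon reaches its receptor. The set described here is a list of 34 human ISGs, chosen by name, out of 28058 genes in a count table. All 34 were found in the table by symbol. Poly(A) RNA was sequenced from cells labelled SH-SY5Y, a human neuroblastoma line, as 2 samples given shock wave treatment (SWT) and 2 control samples without treatment, all in the same medium with fetal calf serum. SWT was 300 pressure impulses at 0.08 mJ/mm2 and 3 Hz, applied to filled flasks at 7 cm from the applicator in a bath at 37 °C, and RNA was taken 6 h later. The design text of the series mentions exosomes from treated cells instead, and the labels do not settle this. The labels do not say whether the replicates of a group came from separate cultures. The p-values and intervals below therefore reflect sample-to-sample spread that could be purely technical.

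In textbook outline, interferon binds a receptor that activates the kinases JAK1 and TYK2, and these phosphorylate STAT proteins. STAT2 and IRF9 are subunits of the complex ISGF3, which binds the interferon-stimulated response element (ISRE) in the promoters of ISGs. The products degrade viral RNA, block its translation, hold viruses at membranes or feed back on the pathway. Many ISGs are also transcribed at a low level without added interferon. Double-stranded RNA sensed by Toll-like receptor 3, the receptor named in the series title, is known to induce interferon beta and ISGs.

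The libraries held 10043697 and 11686808 counts in SWT and 11647603 and 9888263 counts in control (replicates 1 and 2), and levels are given as CPM, the count scaled to a library of 1e+06. The cell label was checked against marker lists. Of 15 noradrenergic neuroblastoma markers 8 were listed at 0 in all 4 libraries, among them PHOX2A, TH and DBH, and 2 reached 10 CPM in every library. The 15 summed to 84.2 and 75.4 CPM in SWT and 79.0 and 80.0 CPM in control. Of 12 mesenchymal markers 0 were listed at 0 and 9 reached 10 CPM in every library. These 12 summed to 11705 and 12593 CPM in SWT and 13242 and 12093 CPM in control. Taken as listed, the markers did not bear out a noradrenergic neuroblastoma line. A listed 0 is not always absence of transcript in these data, as described below for genes beside IFI27 and IRF7. Leukocyte markers, whose cells can carry high ISG levels, summed to 48.4 and 51.3 CPM in SWT and 48.0 and 54.1 CPM in control, with 10 of 12 under 1 CPM throughout and 5 at 0, among them CD3E, LYZ, NKG7 and LST1. Control replicate 2 stood apart by heart muscle transcripts: 13 such genes summed to 33.8 and 9.95 CPM in the SWT libraries, against 7.66 CPM in control replicate 1 and 339 CPM in control replicate 2. A fit that leaves out a control library has 1 library in that group, so its spread comes from the SWT pair alone. In bulk RNA, fewer expressing cells and less RNA per cell cannot be told apart.

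The ISGs fell into a group with steady transcripts and a group with few or none. A mean of at least 1 CPM over the 4 libraries was reached by 23 of 34 genes, of which 17 reached 10 CPM. Another 8 genes had traces under 1 CPM, and 3 were listed at 0. The same 23 genes passed 1 CPM when the control libraries alone were used. There the class changed for 2 genes, RSAD2 and MX2, whose single counts came from SWT libraries. In the SWT libraries alone ISG20 averaged 0.733 CPM, while HERC5 averaged 1.10 CPM and BST2 1.03 CPM. The class of ISG20, HERC5 and BST2 therefore depends on the libraries used.

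The promoters are shown first, because the ISRE letters were present in most of the ISGs that could be searched. Windows from 250 bases before to 50 bases after the gene start were taken from RefSeq (GRCh38.p14) and were found for 28 of the 34 genes, all but IFIT2, OAS2, OASL, MX2, IRF7 and USP18. The ISRE core was searched on both strands as GAAA, any 2 bases, GAAA, and matches may overlap. It was present in windows of 20 of 28 ISGs (71.4%), against 4.38% of all 27305 genes with a window. A match was present in 14 of 20 expressed ISGs, in 5 of 6 ISGs with traces and in 1 of 2 listed at 0. The sequences below show this for expressed genes (IFITM3, SAMD9, DTX3L, IFIT5, IFI44L, ISG15) and for genes with traces or none (BST2, MX1, EPSTI1, IFI27). Each is 30 bases in the 5′ to 3′ direction on the strand that reads GAAA first, with the match in capitals.

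IFITM3 (chr11:320876-320905, minus strand): aaactgttgaGAAACCGAAActactgggga
SAMD9 (chr7:93118096-93118125, minus strand): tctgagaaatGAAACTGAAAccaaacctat
DTX3L and PARP9 (chr3:122564322-122564351, plus strand): ccagggaagcGAAACTGAAActttgcgccc
IFIT5 (chr10:89414513-89414542, minus strand): gtaagcttcaGAAACCGAAActtaatagaa
IFI44L (chr1:78620274-78620303, plus strand): tcctagtgagGAAAAAGAAAgttagtggca
ISG15 (chr1:1013380-1013409, plus strand): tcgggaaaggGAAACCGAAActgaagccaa
BST2 (chr19:17405735-17405764, minus strand): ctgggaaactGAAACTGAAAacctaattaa
MX1 (chr21:41420559-41420588, plus strand): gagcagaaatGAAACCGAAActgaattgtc
EPSTI1 (chr13:42992272-42992301, minus strand): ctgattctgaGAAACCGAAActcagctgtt
IFI27 (chr14:94110618-94110647, minus strand): cattttccagGAAACCGAAActgcagacat

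The DTX3L match is also the PARP9 match, since the genes start head to head and 1 element lies in both windows. The 30 bases shown for IFI44L occur a second time in its window, at chr1:78620365-78620394. The 20 genes had 38 matches in all, with the shared one counted for both genes, and 34 of them lay before the gene start. No match was found for CMPK2, HERC6, IFI35, IRF1, IRF9, OAS1, STAT2 and XAF1, which says only that these letters are not in those windows.

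**Figure D1:**
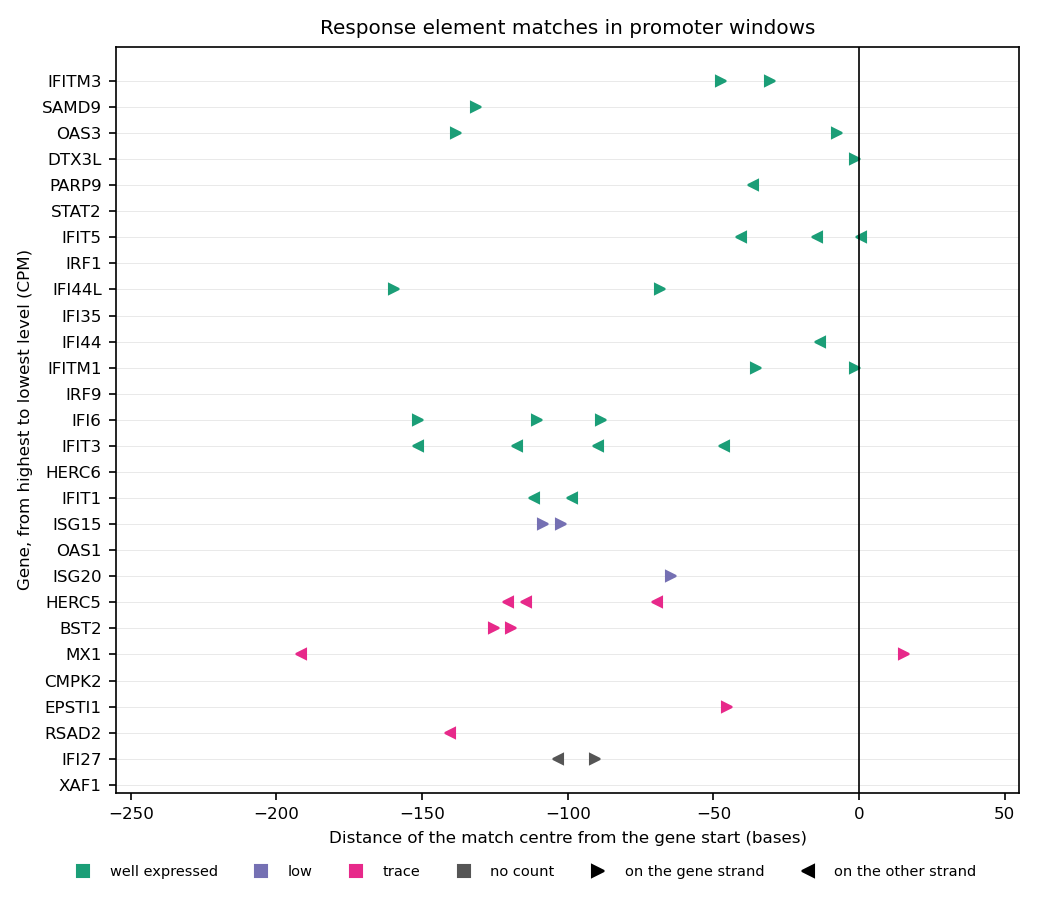
Matches to the ISRE core in the promoter windows of 28 ISGs, ordered from the highest to the lowest mean level (CPM). The x axis is the distance of the match centre from the gene start in bases, arrowheads give the strand and colours the expression class. Matches occur in 20 genes and are found in all 4 classes.

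The signal transducers were present at moderate levels apart from IRF7. STAT2, the ISGF3 subunit that carries the activation domain, stood at 35.2 and 37.7 CPM in SWT and at 38.3 and 36.5 CPM in control. IRF1, an early activator of interferon and ISG promoters, stood at 27.6 and 25.6 CPM in SWT and at 26.3 and 27.4 CPM in control. For both genes the groups overlapped, with log2 fold changes of -0.04 for STAT2 and -0.01 for IRF1. IRF9, the DNA-binding subunit of ISGF3, had 13.5 and 13.2 CPM in SWT, against 18.3 and 14.8 CPM in control. Both SWT libraries were below both control libraries, and control replicate 1 lay farthest out. For IRF9 the fitted log2 fold change was -0.32 (SE 0.13, edgeR adjusted p = 0.838), beside a difference of -0.30 between the control libraries (replicate 2 minus 1), and leaving out control replicate 1 gave -0.15. With control replicate 2 left out IRF9 stood at -0.46 (edgeR adjusted p = 0.0712). In the annotation 1838 of its 3794 exonic bases are shared with AL136295.5 on the same strand, so reads there could be split.

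IRF7, the factor that amplifies the interferon response, was listed at 0 in every library, and so were IFI27 and XAF1. The zero of IFI27 cannot be read as absence of transcript, and the zero of IRF7 is uncertain. Next to IFI27 on chromosome 14, 9 of the nearest 10 protein-coding genes were also listed at 0, among them DDX24, an RNA helicase that all cells use. Near IRF7 on chromosome 11 the picture was mixed. Of its 10 nearest protein-coding genes 3 were at 0, HRAS, CDHR5 and SCT. RNH1, the gene of the ribonuclease inhibitor, lay outside those 10 and was also listed at 0. PHRF1 had 36 counts and DEAF1 had 1189 counts in all 4 libraries together, and TALDO1, farther along, had a mean of 197 CPM. Of 19141 protein-coding genes, 4587 were at 0 in all libraries. Genes that all cells use were at or near 0 on chromosome 6 too. There the beta tubulin gene TUBB had 4 counts in all 4 libraries together, and DDX39B and BAG6 had 0. The beta actin gene ACTB had a mean of 6138 CPM. Around XAF1 on chromosome 17 the picture was mixed as well. TXNDC17 had 2138 counts and MED31 had 711 counts in all 4 libraries together, while RNASEK had 42 counts and C17orf49 was listed at 0. Of the 10 nearest protein-coding genes of XAF1, 4 were at 0, SLC13A5, FBXO39, TEKT1 and ALOX12. The cause of the zeros at genes that all cells use was not tested. These neighbours were looked up after the values were seen.

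Genes of the ISG15 system reached at most 12.5 CPM, with HERC5 at a trace. ISG15, a ubiquitin-like protein that is attached to other proteins, had 5.55 and 6.00 CPM in SWT and 6.80 and 5.96 CPM in control. USP18, the protease that removes ISG15 and restrains the interferon receptor, had 7.54 and 6.69 CPM in SWT and 7.92 and 6.77 CPM in control. Neither gene separated the groups, the log2 fold change being -0.15 for ISG15 (SE 0.18) and -0.06 for USP18 (SE 0.17). For ISG15 it became -0.23 when control replicate 2 was left out and -0.04 when control replicate 1 was. USP18 has a near-identical copy, USP41, so its value is uncertain. HERC6, which is related to the human ISG15 ligase HERC5, stood at 11.4 and 9.18 CPM in SWT and at 12.5 and 11.3 CPM in control, with a log2 fold change of -0.22 (SE 0.15), which became -0.38 when SWT replicate 1 was left out and -0.06 when SWT replicate 2 was. HERC5 had 11 and 13 counts in SWT and 2 and 11 counts in control. Its log2 fold change of 0.85 (SE 0.59) rested on control replicate 1: leaving that library out gave -0.0091, and leaving out control replicate 2 gave 2.60. HERC5 and HERC6 lie side by side on chromosome 4, and per exonic length HERC6 stood at 8.29 ± 1.01 TPM (counts per exonic base, scaled to a common total) and HERC5 at 0.794 ± 0.425 TPM (SD, n = 4).

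All 4 members of the IFIT family, proteins that bind viral RNA and block its translation, were expressed. IFIT5 was the highest, with 31.6 and 31.7 CPM in SWT and 35.3 and 32.8 CPM in control. IFIT1 had 10.3 and 11.6 CPM in SWT and 12.0 and 9.80 CPM in control, a log2 fold change of 0.0049. IFIT3 had 11.1 and 10.1 CPM in SWT and 10.6 and 12.7 CPM in control. The groups overlapped for IFIT1 and IFIT3, and the SWT libraries lay below the control libraries for IFIT5. IFIT2 had 5.85 and 5.40 CPM in SWT and 6.37 and 6.97 CPM in control, without overlap, at -0.24 on the log2 scale (SE 0.18, edgeR adjusted p = 0.902). Per exonic length the order was IFIT5 at 35.4 ± 1.65, IFIT3 at 18.3 ± 1.80, IFIT1 at 10.2 ± 0.954 and IFIT2 at 6.49 ± 0.676 TPM (SD, n = 4). The family lies in a cluster on chromosome 10.

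The OAS family, enzymes that make 2-5A and so activate RNase L, was dominated by OAS3. OAS3 had 95.2 and 93.9 CPM in SWT and 105 and 86.4 CPM in control. OAS1 had 6.65 and 4.80 CPM in SWT and 6.63 and 6.16 CPM in control. OASL, a relative without that enzymatic activity, had 4.56 and 4.46 CPM in SWT and 4.82 and 3.54 CPM in control. For OAS3, OAS1 and OASL the groups overlapped, with log2 fold changes of -0.02, -0.17 and 0.10. OAS2 was at a trace, with 13 and 4 counts in SWT and 8 and 2 counts in control. OAS1, OAS3 and OAS2 are neighbours on chromosome 12 (112906777 to 113011723, GENCODE 29 on GRCh38), yet per exonic length OAS3 stood at 49.9 ± 4.05 TPM, OAS1 at 5.30 ± 0.756 TPM and OAS2 at 0.437 ± 0.338 TPM (SD, n = 4).

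The dynamin-like GTPases of the MX family had few counts. MX1, which is widely used as a readout of type I interferon, had 7 and 7 counts in SWT and 6 and 4 counts in control. MX2 had 0 and 1 count in SWT and 0 and 0 in control. MX1 averaged 0.647 ± 0.0664 CPM in SWT and 0.460 ± 0.0795 CPM in control (SD, n = 2 each). MX1 was too low for the test. Of the 10 nearest protein-coding genes, 5 were listed at 0 for MX1 and 6 for MX2. Whether this bears on the MX counts was not tested.

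Among membrane restriction factors, IFITM3 was the most abundant gene of the whole set. IFITM3, which hinders the fusion of viruses in endosomes, stood at 1096 ± 74.4 TPM over the 4 libraries (SD, n = 4), above 99.4% of the 16722 genes that had a count and a length. It had 310 and 336 CPM in SWT, against 371 and 349 CPM in control, and the groups did not overlap. The log2 fold change was -0.16 (SE 0.06, 95% interval -0.28 to -0.03, edgeR adjusted p = 0.838). Without control replicate 2 it was -0.20 and passed the test (edgeR adjusted p = 0.0192), in a fit with a single control library that called 106 genes higher and 97 lower over all tested genes. Without SWT replicate 1 it was -0.099. With the trend of each library along transcript length and GC content removed it was -0.08. IFITM1, the relative found mainly at the cell surface, had 13.9 and 20.1 CPM in SWT and 18.2 and 16.6 CPM in control, and the SWT libraries differed from each other (0.53 on the log2 scale, replicate 2 minus 1) by more than the groups did (-0.03). IFITM1 shares 351 of its 1080 annotated exonic bases with IFITM2, and the IFITM genes are similar in sequence, so their single values are uncertain. BST2, or tetherin, which holds budding virions at the cell, had 7 and 16 counts in SWT and 11 and 4 counts in control, with a log2 fold change of 0.59 (SE 0.53) that became 1.36 when control replicate 1 was left out and 0.16 when control replicate 2 was.

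The remaining effectors were a well expressed gene, SAMD9, and 3 genes near or under 1 CPM. SAMD9, which inhibits poxviruses, had 105 and 105 CPM in SWT, against 91.9 and 94.9 CPM in control. Both SWT libraries were above both control libraries, and replicates of a group differed little. The log2 fold change was 0.17 (SE 0.06, 95% interval 0.04 to 0.30, edgeR adjusted p = 0.838), between 0.15 and 0.20 with each library left out. ISG20, an RNA exonuclease, had 7 and 9 counts in SWT, against 16 and 13 in control, which is 0.694 and 0.772 CPM against 1.38 and 1.31 CPM. These did not overlap, and the log2 fold change of ISG20 was -0.86 with a wide interval (-1.78 to 0.06, edgeR adjusted p = 0.843). ISG20 passed the count filter of the test through its control libraries alone. That favoured a value below 0, so no weight can be put on its direction. CMPK2, a mitochondrial nucleotide kinase, had 2 and 2 counts in SWT and 2 and 1 in control. RSAD2, which encodes viperin and lies head to head with CMPK2 on chromosome 2, had 1 and 0 counts in SWT and 0 and 0 in control. Where a library had no count, a level of up to 0.257 to 0.303 CPM (3 counts) could still be present, by counting error alone.

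PARP9 and its partner DTX3L, an ADP-ribosyltransferase and a ubiquitin ligase that act as a complex in the interferon response, were both well expressed. DTX3L had 94.7 and 87.4 CPM in SWT and 89.9 and 98.6 CPM in control. PARP9 had 50.6 and 54.2 CPM in SWT and 62.2 and 53.3 CPM in control. The groups overlapped for both, at -0.05 for DTX3L (SE 0.07) and -0.14 for PARP9 (SE 0.08) on the log2 scale. Leaving out control replicate 2 gave -0.24 for PARP9 (edgeR adjusted p = 0.124), and leaving out control replicate 1 gave -0.02. Per exonic length DTX3L stood at 68.3 ± 3.62 TPM and PARP9 at 26.7 ± 2.28 TPM (SD, n = 4). Their exons overlap by 217 bases on opposite strands, and the strand setting of the counting was not given in the sources used here.

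Of the 7 genes with other or less settled roles, 4 were well expressed. IFI44L had 22.2 and 24.4 CPM in SWT, against 28.0 and 27.5 CPM in control. IFI44, its neighbour on chromosome 1, had 20.0 and 20.6 CPM in SWT, against 16.8 and 18.5 CPM in control. The pair differed in direction without overlap in either gene, at log2 fold changes of -0.25 for IFI44L (SE 0.10, edgeR adjusted p = 0.838) and 0.21 for IFI44 (SE 0.11, edgeR adjusted p = 0.861), and neither passed the test. IFI35, which binds its partner NMI, had 17.9 and 19.0 CPM in SWT, against 24.6 and 20.8 CPM in control. Its libraries did not overlap either, and the log2 fold change was -0.30 (SE 0.12, edgeR adjusted p = 0.838), from -0.41 without control replicate 2 (edgeR adjusted p = 0.0619) to -0.17 without control replicate 1. IFI6, a mitochondrial and ER protein that protects against cell death, had 11.9 and 10.9 CPM in SWT and 12.2 and 10.7 CPM in control. EPSTI1 had 0 and 1 count in SWT and 2 and 0 counts in control.

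**Figure D2:**
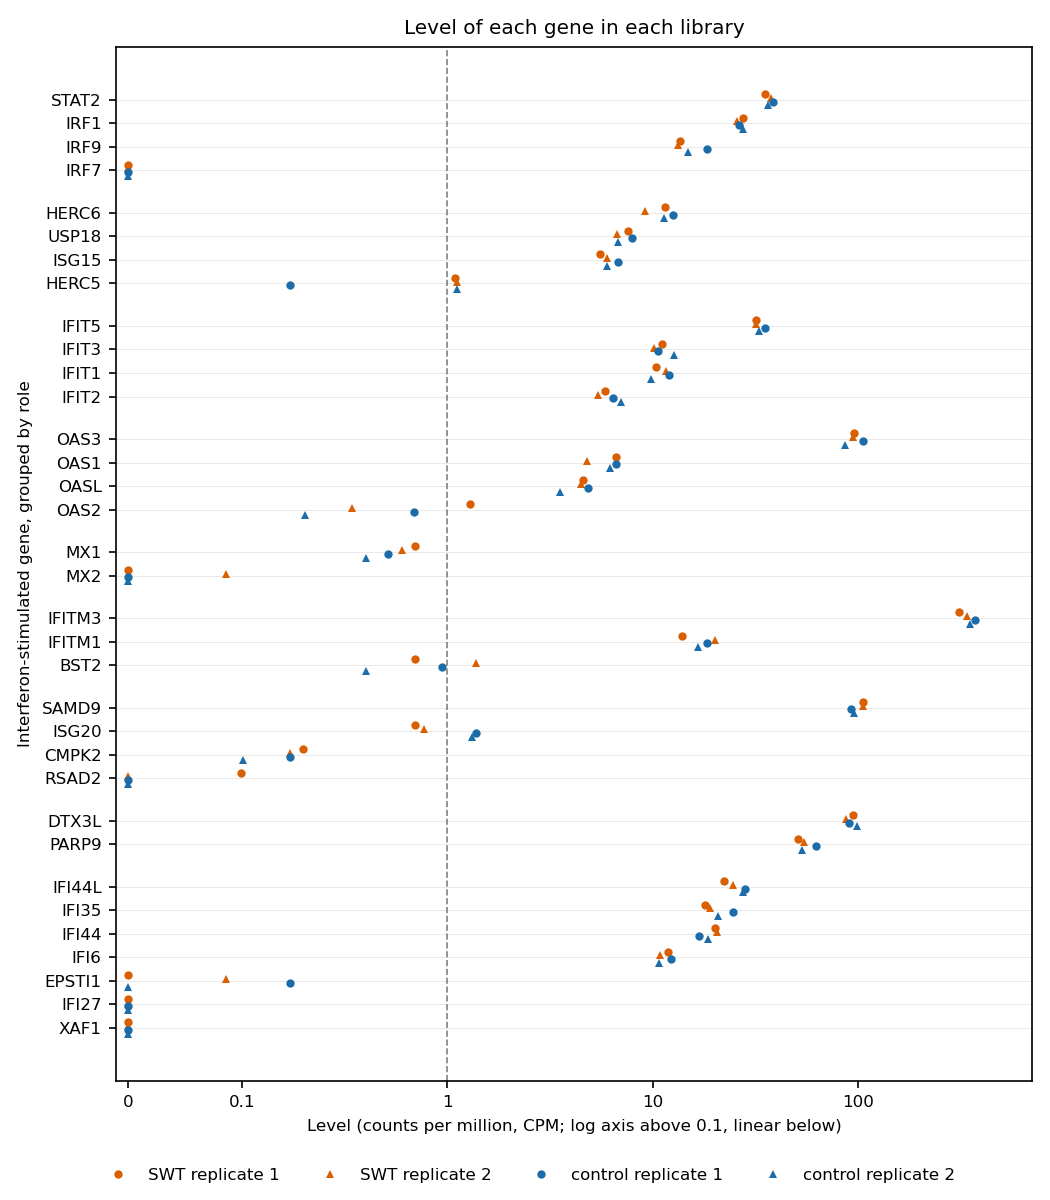
Level of each of the 34 ISGs in each library in CPM, on an axis that is logarithmic above 0.1 and linear below, grouped by role. Each point is a library, SWT in orange and control in blue, and the dashed line marks 1 CPM. IFITM3 lies at 310 to 371 CPM, and IRF7, IFI27 and XAF1 lie at 0.

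The top of the order per exonic length was IFITM3 at 1096 ± 74.4 TPM, then IFITM1 at 68.9 ± 10.4, DTX3L at 68.3 ± 3.62, SAMD9 at 62.7 ± 4.81, IFI6 at 57.2 ± 3.79 and OAS3 at 49.9 ± 4.05 TPM (SD, n = 4). Of 22 neighbouring pairs in the order of the 23 expressed genes, 17 had ranges over the libraries that overlapped, so those neighbours did not differ beyond their spread. Of the 34 genes, 16 lay above the middle of all genes with a count. With the longest transcript as the length, no gene moved by more than 4 ranks.

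**Figure D3:**
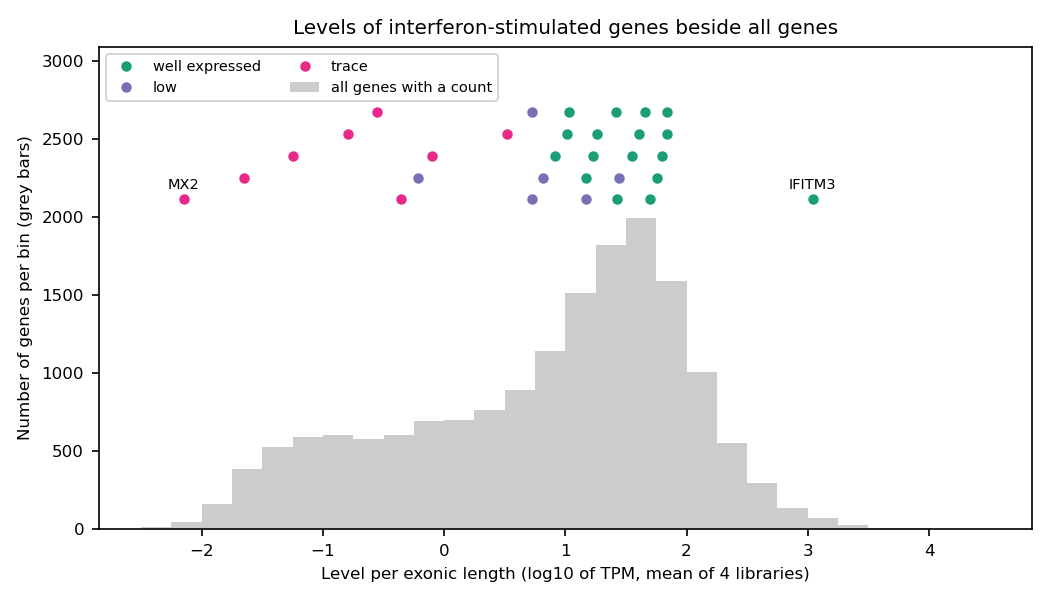
Levels per exonic length (log10 of TPM, mean of 4 libraries) of the 31 ISGs with a count, as coloured dots above a histogram of all 16722 genes with a count and a length. Dot heights only keep the dots apart. IFITM3 sits at the upper end at 1096 TPM and MX2 at the lower end.

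The SWT libraries were then compared with the control libraries at 6 h. No ISG passed the test: with edgeR's quasi-likelihood test 0 of the 25 tested ISGs were higher and 0 lower at an adjusted p of 0.05, where the same fit called 0% of 12399 genes higher and 0% lower. DESeq2 and limma-voom also called 0 ISGs in either direction. Adjusted p-values of the ISGs lay between 0.838 and 0.998. The other 9 ISGs had too few counts for the test. BST2, HERC5 and ISG20 were near that limit.

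A 2-fold rise lay outside the 95% interval for 23 of the 25 tested ISGs, and even a 1.5-fold rise did, with BST2 and HERC5 as the exceptions. The highest upper limits among the 23 were 1.47-fold for OASL and 1.37-fold for IFI44. The upper limits were 1.18-fold for ISG15, 1.25-fold for IFIT1, 1.14-fold for IRF1, 1.18-fold for OAS1 and 1.24-fold for USP18. The upper limits for the exceptions were 3.29-fold for BST2 and 4.29-fold for HERC5. Downward the intervals were wider: a 1.5-fold fall lay inside them for ISG20, IFIT2, IRF9 and OAS1, and a 2-fold fall for ISG20. The whole interval lay within 1.5-fold either way for 19 of the 25 and within 2-fold for 22. These intervals come from the edgeR fit on 2 libraries a group and are approximate. If the replicates were not separate cultures, the intervals leave out the spread between cultures and are too narrow.

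At an unadjusted p of 0.05, edgeR gave 4 of the 25 tested ISGs as lower, IFITM3, IFI35, IRF9 and IFI44L, beside 2.96% of all tested genes, and 1 as higher, SAMD9, beside 2.81% of all tested genes. Both SWT libraries lay below both control libraries for 7 of the 25 ISGs, beside 18% of all tested genes, and above them for 2, beside 17.3% of all tested genes. The 7 were IFITM3, IFI35, IFIT5, IRF9, IFI44L, IFIT2 and ISG20, and the 2 were SAMD9 and IFI44. ISG20 was tested only because of its control libraries, so its place among the 7 was favoured in advance. The median log2 fold change was -0.06 over the 25 tested ISGs with 19 below 0, and -0.05 over the 17 well expressed ISGs with 14 below 0. Over all tested genes the median was -0.00078, with 50.3% below 0. No test was attached to these counts.

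Over the 25 tested ISGs the median size of the log2 difference was 0.15 between the groups, 0.11 between the SWT libraries and 0.14 between the control libraries. Over all tested genes these medians were 0.07 between the groups, 0.09 between the SWT libraries and 0.11 between the control libraries. The larger of the 2 within-group differences exceeded the group difference for 16 of the 25 ISGs (64%), and for 76.3% of all tested genes. A group difference averages 2 libraries a group, while a within-group difference sets single libraries against each other. The control libraries also differed in direction: control replicate 2 minus control replicate 1 had a median of -0.10 over the ISGs and of -0.0015 over all tested genes, while the SWT libraries (replicate 2 minus 1) differed by 0.0042. Leaving out control replicate 2 gave a median group difference of -0.14, and leaving out control replicate 1 gave -0.03. Summed over all 34 genes, ISG transcripts made up 918 and 943 CPM in SWT and 1010 and 954 CPM in control. Without IFITM3 the sums were 607 and 607 CPM in SWT and 639 and 606 CPM in control, where control replicate 1 alone stood higher. The part of the heart muscle transcripts of control replicate 2 in these values was not tested.

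**Figure D4:**
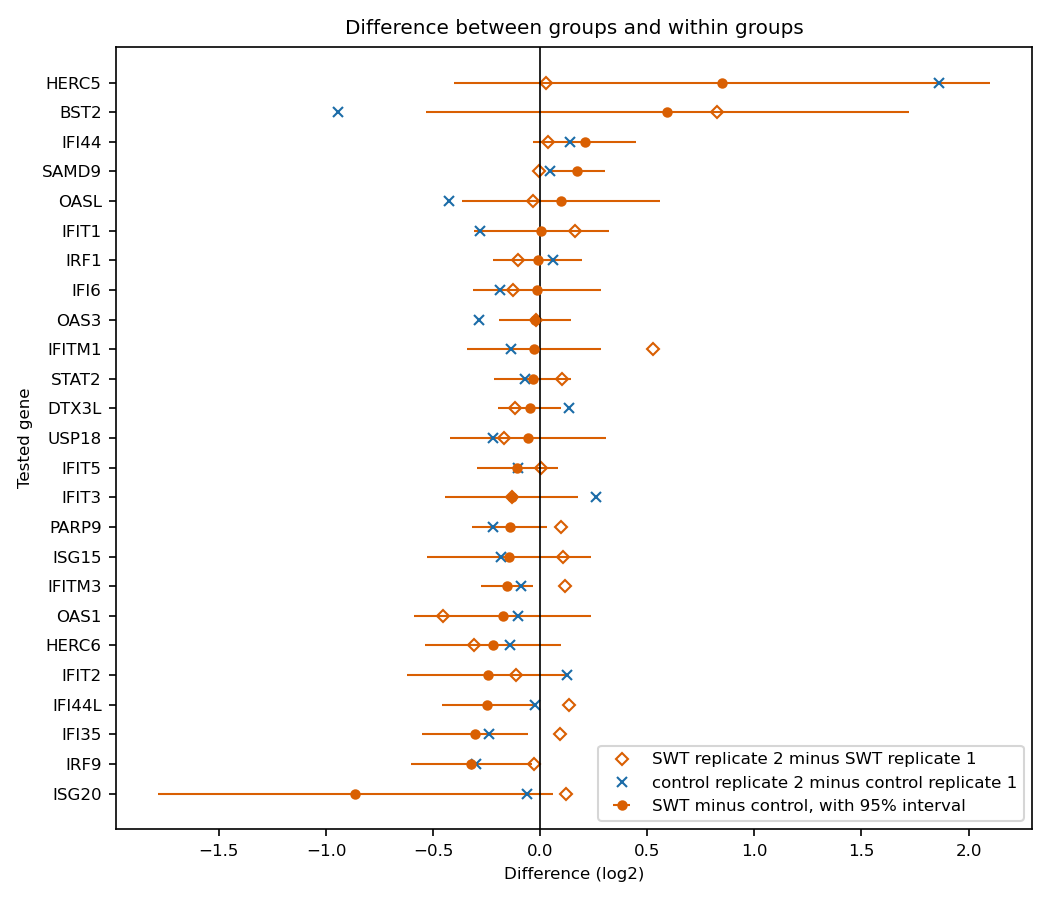
Log2 differences of the 25 tested ISGs, SWT minus control as filled points with 95% intervals, with SWT replicate 2 minus SWT replicate 1 as open diamonds and control replicate 2 minus control replicate 1 as crosses. Intervals include 0 for 20 of the 25 genes, and a within-group difference exceeds the group difference for 16 (64%), beside 76.3% of all tested genes.

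Of the 8 trace genes only BST2 and HERC5 had enough counts for the test. The 8, HERC5, BST2, OAS2, MX1, CMPK2, EPSTI1, RSAD2 and MX2, summed to 41 and 44 counts in SWT and 31 and 22 counts in control, which is 4.07 and 3.77 CPM against 2.67 and 2.22 CPM. The sums did not overlap, and HERC5, OAS2 and BST2 made up most of them. In control replicate 1 HERC5 had 2 counts, and in control replicate 2 BST2 had 4 counts and OAS2 had 2. No test was run on these sums, and no like sum of other low genes was taken. RSAD2, MX2, CMPK2 and EPSTI1, together with MX1, are genes known for strong induction by interferon in many cell types. Each of these 5 was under 1 CPM in both SWT libraries. That was largely fixed in advance, since trace genes were defined by a mean under 1 CPM over the same 4 libraries. HERC5 had 1.09 and 1.11 CPM in SWT and 0.172 and 1.11 CPM in control. OAS2 reached 1.29 CPM in SWT replicate 1 and BST2 1.37 CPM in SWT replicate 2, with both under 1 CPM in the other libraries.

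Most of the interferon genes looked up had no count, while the chains of the type I receptor were present. Of these 13 interferon genes, 10 were listed at 0, including IFNB1 (interferon beta), IFNK and the lambda interferons IFNL1, IFNL2 and IFNL3. The interferon alpha genes looked up were only IFNA1, IFNA2, IFNA5, IFNA6 and IFNA8. IFNA2 and IFNA6 had 1 count each, both in SWT replicate 1. Only IFNE (interferon epsilon), a type I interferon known from epithelium of the reproductive tract, had more, at 2.88 and 1.63 CPM in SWT and 1.81 and 2.12 CPM in control. The receptor chains IFNAR1 and IFNAR2 were both present. IFNAR1 had 63.3 and 66.8 CPM in SWT and 65.6 and 74.7 CPM in control, and IFNAR2 had 22.9 and 22.0 CPM in SWT and 19.3 and 20.4 CPM in control. IFNAR2 was without overlap, at 0.18 on the log2 scale (SE 0.11, edgeR adjusted p = 0.875). IFNGR1, of the interferon gamma receptor, stood at -0.20 (SE 0.09, edgeR adjusted p = 0.843). IFNGR2 was under 1 CPM in every library and its neighbour TMEM50B was listed at 0, so that value is uncertain too. IFNLR1, the chain specific to the lambda interferon receptor, had 0 and 1 count in SWT and 2 and 2 counts in control, and IRF8, a factor of blood cells, had 0 and 0 counts in SWT and 1 and 0 in control.

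The kinases JAK1 and TYK2 and the factor IRF3 were above 10 CPM in every library. JAK1 averaged 146 ± 3.64 CPM in SWT and 147 ± 0.417 CPM in control (SD, n = 2 each). TYK2 averaged 67.2 ± 0.517 CPM in SWT and 68.5 ± 0.763 CPM in control, and IRF3, which induces IFNB1, averaged 39.0 ± 0.354 CPM in SWT and 37.8 ± 3.62 CPM in control (SD, n = 2 each). Log2 fold changes of these 3 lay between -0.03 and 0.04. IRF5 had 1.49 and 1.89 CPM in SWT, against 2.93 and 2.83 CPM in control, and at -0.76 on the log2 scale (SE 0.29, edgeR adjusted p = 0.838) it did not pass the test. Among the inhibitors SOCS3 stood at -0.16 (SE 0.07), PIAS1 at 0.10, PTPN2 at 0.02 and SOCS1 at -0.02.

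Over the whole list of 75 other pathway genes, 50 were tested and 0 passed in either direction, with 29 below 0 and a median log2 fold change of -0.02. Among the 44 further interferon-responsive genes of that list, 34 were tested, with 19 below 0. The smallest p-values belonged to IFITM2 at -0.14, LGALS3BP at -0.11, EIF2AK2, the kinase PKR, at 0.13 and TDRD7 at 0.15, with edgeR adjusted p-values from 0.838 to 0.870. IFITM2 had 203 and 206 CPM in SWT, against 229 and 222 CPM in control, without overlap, as for its neighbour IFITM3. TAP1, PSMB9, LY6E, RTP4 and CCL5 were listed at 0, TAP1 and PSMB9 in the stretch of chromosome 6 where TUBB is almost without counts.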

How the data were processed

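The authors deposited raw counts per gene symbol and a second table of log2 values. Per the submitters' processing notes, which give no roles, the tools were STAR 2.5.3a, HTSeq, DESeq2, FastQC 0.11.5 and Trimmomatic 0.36, and the build was hg38. A stranded mRNA kit was used, per the labels' protocols. The annotation was not given in the sources used here.

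Counts were tested with edgeR 4.0.16 (R 4.3.3): TMM factors, filterByExpr with the group, quasi-likelihood F-test, Benjamini-Hochberg over 12399 genes. Standard errors were derived from the fold change and its F statistic. CPM use TMM-scaled library totals. TPM divide CPM by the union of exons in GENCODE 29 (GRCh38), matched by symbol for 91.6% of genes and all 34 ISGs. Alternatives used DESeq2 1.42.0 and limma 3.58.1. The limma fit on the deposited log2 values took them as they stand, although they spread less than the counts (slope 0.376 against log2 counts). The fits were also run on simulated counts without the shifts of single libraries seen here, so that run says nothing about such shifts. Plots used matplotlib 3.10.9 under Python 3.11.15.

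The members, lists and tests were chosen with earlier results of these data known. Every ISG is described, those at 1 CPM or more by library. In the pathway list the rule names 7 genes, of which 1 is not reported here, and in each other group up to 4 with the smallest p-values.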

Additional observations from a re-analysis of the deposited data

How the results depend on the processing

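The count of 0 ISGs higher held in every alternative fit: DESeq2, limma-voom, the deposited log2 values under limma, other scalings (DESeq2 size factors, upper quartile), other filters (none, or a mean count over 50), the replicate block, each library left out, removal of the length and GC trend, robust empirical Bayes and a threshold of 0.1. The count of 0 ISGs lower held in them too, except that leaving out each library gave 0 to 1, the 1 being IFITM3 without control replicate 2. Counts over all genes moved more: without a filter 20 genes were higher and 43 lower, with each library left out 2 to 106 were higher and 15 to 97 lower, and with the length and GC trend removed 1 was higher. The replicate block gave 1 gene lower. Same-numbered deviations correlated at -0.283 over 6324 genes, and a crossed pairing, added after the data were seen, gave 55 genes higher and 42 lower, with 0 ISGs in either direction. Labels do not say that numbers pair the samples.

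The median over tested ISGs ranged from -0.138 to -0.032 with each library left out. Single ISGs near 0 changed sign when a library was left out, none of them called: IFIT1 from -0.122 to 0.165, IFIT3 from -0.265 to 0.000484, OAS1 from -0.415 to 0.0536, OAS3 from -0.154 to 0.131, OASL from -0.0955 to 0.350, IFI6 from -0.104 to 0.0865, IFITM1 from -0.328 to 0.202, STAT2 from -0.0870 to 0.0118, IRF1 from -0.0640 to 0.0416, USP18 from -0.159 to 0.0667 and DTX3L from -0.117 to 0.0175. Removal of the length and GC trend changed the sign of IFIT1 (-0.0245), IFI6 (0.0550) and IFITM1 (0.0242). The cause was not tested. Expressed ISGs numbered 27 at 0.5 CPM and 21 at 5 CPM, and a looser ISRE core, with the last A dropped, matched in 21 ISGs. The fit without a filter also called 0 ISGs. Of the 9 ISGs outside the main test, 6 had between 1 and 27 counts in all, which limits what could be seen to large differences, and the other 3 are listed at 0.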
